A study of Mus musculus with 8 samples.

Results

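The genes described here encode the machinery of regulated cell death: the Bcl2 family, the caspases, the inhibitor of apoptosis proteins, the death receptors with their adaptors, and the necroptosis proteins. The list names 36 genes, and 34 of them, among 19938 genes with a probe set of their own, were measured by a probe set that carries that gene's symbol alone. Where a gene had several such probe sets, the one with the highest mean over all 8 arrays was taken. Bax and Ripk1 were not analysed here. Of the 34 genes, 26 promote death and 8 restrain it.

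Apoptosis runs along a pair of routes. In the mitochondrial route, BH3-only proteins engage Bcl2 and its relatives, the effectors Bax and Bak1 then open the outer mitochondrial membrane, and released cytochrome c assembles Apaf1 and caspase-9 into the apoptosome. In the receptor route, Fas or a TNF receptor recruits Fadd and caspase-8, and when caspase-8 is not active, Ripk1 and Ripk3 can instead activate Mlkl, which ruptures the cell (necroptosis). In the testis, germ cells are removed by apoptosis in large numbers, and the balance of Bcl2 family proteins is known to set how many spermatogonia survive.

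The arrays, 8 in 3 groups, measured total RNA from cultures of mouse spermatogonial stem cells, which renew themselves and feed sperm production. In the young short-culture group (titled "Not aged", 3 arrays) the donors were 8 days old and the cells had been cultured for 7 to 10 weeks. In the young long-culture group ("Aged in vitro", 3 arrays) donors had the same age of 8 days but the cells were kept for 14 to 18 months. In the serial-transplant group ("Aged in vivo and in vitro", 2 arrays) the labels give serially transplanted cells, a donor age of 1500 days and again 14 to 18 months of culture. Donor age and transplantation cannot be told apart in that group, and the labels do not say whether replicates were separate donors or cultures. The p-values therefore reflect array-to-array spread alone, and that spread may be technical.

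Values are log2 signals, and a difference of 1 is a doubling of signal. Array medians lay between 6.90 and 6.98 and correlations within groups between 0.990 and 0.997. All 15 germ cell markers had means above the median of all probe sets (6.94), among them Ddx4 (11.75, 11.40 and 11.96 in young short, young long and serial-transplant arrays) and Dazl (12.28, 12.73 and 12.71). Young short-culture replicate 2 stood apart with the lowest correlations to its group (0.991 and 0.990) and the lowest mean of the germ cell list (9.57, against 9.86 and 9.94 in its group).

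In young-donor cells more death genes were lower than higher after long culture, receptors, caspases and inhibitors among them. Compared with short culture, 9 of the 34 genes fell and 1 rose (limma, Benjamini-Hochberg adjusted p under 0.05 over all 28939 probe sets). The falling genes were Casp12, Fas, Casp8, Cflar, Tnfrsf1a, Bak1, Birc3, Bcl2 and Bad, and the rising one was Bik. Among all probe sets 11.3% passed, 5.83% falling and 5.44% rising, and among the 14488 probe sets with a mean above the median of all, 7.48% fell and 9.21% rose. The share that fell among the death genes was 26.5%. Genes of both sides fell, 6 of the 26 that promote death and 3 of the 8 that restrain it. The median log2 change was -0.11, beside -0.04 over all probe sets. The count of falling genes was 5 without young long-culture replicate 1, 4 without replicate 3 and 6 without young short-culture replicate 2. Falling calls over all probe sets numbered 786, 611 and 1255 in the same fits, against 1687 with all arrays. Bik did not pass, and 0 genes rose, when young long-culture replicate 1 or 3 was left out.

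**Figure D1:**
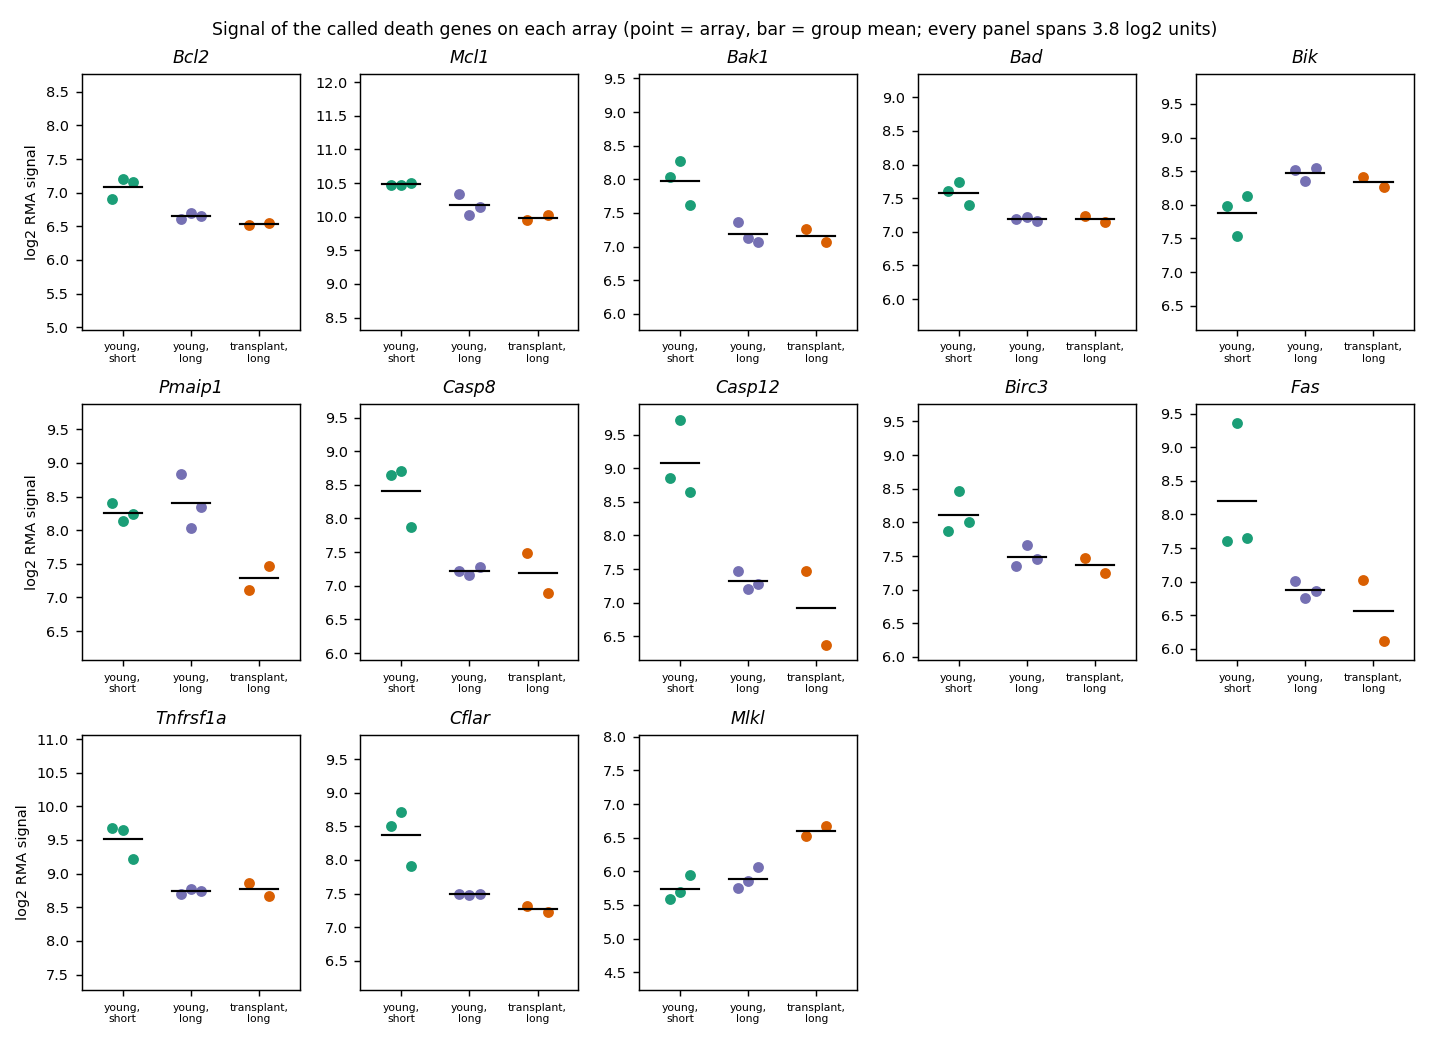
Log2 RMA signal (y axis) of the 13 death genes that passed the test in a comparison, on each array (points), with the mean of each group as a bar; x axis, the 3 groups. Casp12, Casp8, Cflar and Tnfrsf1a lie higher on every young short-culture array than on every long-culture array, Pmaip1 is low only on the 2 serial-transplant arrays, and Mlkl is high only there.

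The serial-transplant arrays showed a similar picture against the same young short-culture arrays, so the 2 comparisons share those controls. In that comparison 10 of 34 genes fell and 1, Mlkl, rose, beside 8.74% of all probe sets, 5.15% lower and 3.58% higher. Among those above the median of all, 7.15% were lower and 6.09% higher. Bad did not pass there (-0.38, adjusted p = 0.0746) and neither did Bik (0.45, adjusted p = 0.117), while Mcl1 and Pmaip1 were added to the falling genes. Of the genes that restrain death 4 of 8 fell, and of those that promote it 6 of 26. These calls depended on single serial-transplant arrays, and leaving out either one leaves 1 array in that group. Fewer probe sets of the whole series passed in those fits too, so the loss was not particular to the death genes. The calls of Bcl2, Birc3, Fas, Mcl1 and Pmaip1 were lost without either array, and the others without replicate 2. The log2 changes kept their sign, with Casp12 at -1.60 and Tnfrsf1a at -0.65 without replicate 2. A group left with 1 array takes its spread from the other groups.

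Between serial-transplant and young arrays, both in long culture, no probe set passed the test (limma, 0 of 28939, and 2079 at an unadjusted p under 0.05, which is 7.18%). The unadjusted p was under 0.05 for 3 of the 34 genes, namely Pmaip1, Mlkl and Ripk3. With array weights 22 probe sets passed, with only the arrays compared 15, and without young short-culture replicate 2, 11. For the death genes the 95% confidence interval of a log2 change reached between 0.23 and 0.95 to either side (median 0.31). These intervals are for single genes and are not corrected for the many probe sets tested, so larger differences could also fail to pass. Pmaip1 (-1.12, reach 0.44) and Mlkl (0.71, reach 0.30) changed by more than the reach of their intervals and did not pass.

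**Figure D2:**
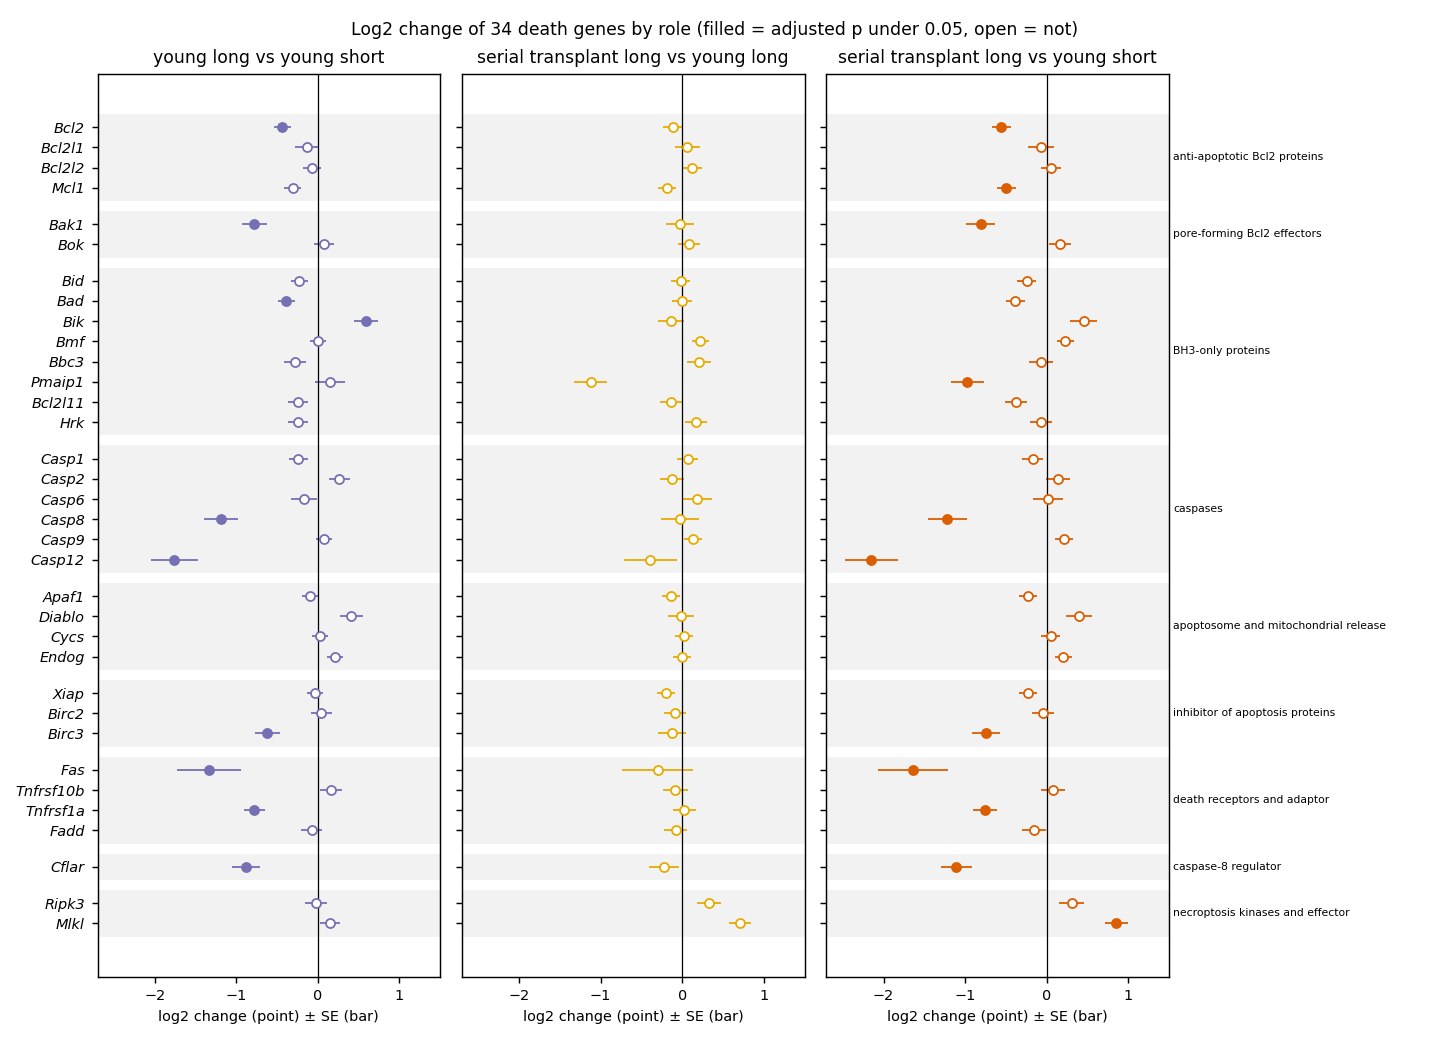
Log2 change (points) with its standard error (bars) of the 34 death genes, in rows grouped by role, for the 3 comparisons in columns; filled points passed an adjusted p of 0.05. The left and right columns share the young short-culture arrays, and the largest falls in both are those of Casp12 (-1.76 and -2.15), while no point of the middle column is filled.

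Among the death receptors, Fas and Tnfrsf1a fell and Tnfrsf10b did not pass. Fas, the receptor of Fas ligand, had 7.61, 9.35 and 7.66 on young short-culture replicates 1 to 3, 7.01, 6.75 and 6.86 on young long-culture arrays and 7.02 and 6.12 on serial-transplant arrays. Replicate 2 was the high short-culture array, and long-culture values did not overlap short-culture ones in either line. The log2 change was -1.33 ± 0.39 (SE) in young long culture (adjusted p = 0.0481) and -1.64 ± 0.43 in serial-transplant cells (adjusted p = 0.0388). Without young short-culture replicate 2 the change of Fas in young cells was -0.76 (adjusted p = 0.0484). Its call in young cells was lost without any one of the 5 long-culture arrays (adjusted p between 0.0542 and 0.133). In serial-transplant cells it was lost without the same arrays (0.0542 to 0.386), and the change was -1.06 without young short-culture replicate 2. Fas passed in neither comparison after quantile normalization (adjusted p = 0.0802 in young and 0.0677 in serial-transplant cells) or with only the arrays compared (0.0542 and 0.104). In young cells it was also lost after centring (0.0513).

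Tnfrsf1a, the main TNF receptor, varied less. It had 9.67, 9.66 and 9.22 in young short culture, 8.69, 8.78 and 8.75 in young long culture and 8.87 and 8.66 in serial-transplant cells, so the groups in long culture lay together and below every short-culture array. The log2 change was -0.78 ± 0.13 (1.72-fold, adjusted p = 0.00514) in young and -0.75 ± 0.14 (adjusted p = 0.00986) in serial-transplant cells, with the latter at adjusted p = 0.157 without serial-transplant replicate 2. Tnfrsf10b, the mouse TRAIL receptor, had group means of 8.89, 9.05 and 8.97 in young short, young long and serial-transplant arrays. Fadd, the adaptor that joins these receptors to caspase-8, had means of 7.72, 7.64 and 7.56, and neither passed in any comparison.

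The initiator caspase of the receptor route fell with the receptors. Casp8 had 8.65, 8.70 and 7.87 in young short culture, 7.22, 7.17 and 7.28 in young long culture and 7.49 and 6.89 in serial-transplant cells. Short-culture replicate 3 was the lowest of its group and still above all long-culture arrays. Casp8 changed by -1.18 ± 0.21 (2.27-fold, adjusted p = 0.00672) in young and -1.22 ± 0.23 (2.32-fold, adjusted p = 0.0102) in serial-transplant cells, and the latter was -0.92 (adjusted p = 0.174) without serial-transplant replicate 2.

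Cflar encodes cFLIP, a caspase-8 relative without protease activity that blocks caspase-8 at the receptor. It had 8.50, 8.71 and 7.91 in young short culture, 7.49, 7.48 and 7.50 in young long culture and 7.31 and 7.22 in serial-transplant cells, again with replicate 3 the lowest of the short-culture arrays. Cflar changed by -0.88 ± 0.17 (adjusted p = 0.00903) and -1.11 ± 0.19 (adjusted p = 0.00649), the latter at adjusted p = 0.105 without serial-transplant replicate 2. The probe set behind these values has an identifier that falls in order among probe sets of chromosome 3 genes, where RefSeq (GRCm38.p6) lists Gm9845, a pseudogene whose name is also a synonym of Cflar, so its target is uncertain. The other 2 probe sets of Cflar changed by -0.86 and -1.07 in young cells (adjusted p = 0.00849 and 0.00343) and by -0.98 and -1.27 in serial-transplant cells (0.00861 and 0.00351).

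Casp12, a caspase of the inflammatory group that resides at the endoplasmic reticulum, had the largest fall of the 34 genes. Its signal was 8.86, 9.72 and 8.65 in young short culture, 7.47, 7.20 and 7.28 in young long culture and 7.47 and 6.38 in serial-transplant cells. The short-culture arrays lay above all others, with replicate 2 the highest, and the serial-transplant arrays differed from each other more than the young long-culture arrays did. Casp12 changed by -1.76 ± 0.29 (3.38-fold, adjusted p = 0.00502) in young and -2.15 ± 0.32 (4.44-fold, adjusted p = 0.00444) in serial-transplant cells, the latter -1.60 (adjusted p = 0.0818) without serial-transplant replicate 2. In young cells the calls of Casp12, Casp8, Cflar and Tnfrsf1a held with each of the 8 arrays left out in turn.

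The other caspases did not pass in any comparison. Casp9, the initiator in the apoptosome, had means of 9.05, 9.12 and 9.26 in young short, young long and serial-transplant arrays. Casp2, an initiator that responds to genome stress, had 9.69, 9.95 and 9.83. Casp6, an executioner caspase, had 8.08, 7.91 and 8.10. Casp1, which matures interleukin-1 beta, had 4.06, 3.83 and 3.89, which is background range, since the lower quartile of signal was 5.32 to 5.52 depending on the array. In the comparison of young long with short culture the log2 changes of these 4 caspases ranged from -0.24 for Casp1 to 0.26 for Casp2.

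The genes that fell lie partly side by side. Among measured protein-coding genes Cflar and Casp8 are next to each other on chromosome 1, and the measured genes that flank the pair, Flacc1 (0.02, adjusted p = 0.927, with a mean of 3.97 in the range of background) and Trak2 (0.02, adjusted p = 0.918), did not pass in young long against short culture. On chromosome 9, Casp1, Casp4 and Casp12 are consecutive measured genes. Casp4, the caspase that senses bacterial lipopolysaccharide inside cells, is no member of the list, and it fell with Casp12 by 1.54 on the log2 scale (SE 0.28, adjusted p = 0.00709). Birc2 and Birc3 are also neighbours on chromosome 9, and of these Birc3 fell and Birc2 did not pass.

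RefSeq promoters (GRCm38.p6) were found for 11 of the 13 death genes that passed in a comparison, 12 promoters in all. The 250 bases before the start were searched on both strands for the interferon response element (GAAA 2 times, 2 bases apart), the gamma-activated site bound by STAT factors (TTCNNNGAA), the AP-1 site (TGANTCA), the GC box (GGGCGG) and the TATA box (TATAAA), with N for any base and no overlap between these motifs required or removed. A gamma-activated site match was present in the promoters of Casp12, Fas and Tnfrsf1a, and in 7.02% of all 32851 promoters of the same length. The interferon response element was in none of the 12 and in 2.98% of all. An AP-1 site was in that of Fas alone (6.75% of all), and GC boxes were in those of Bad, Bcl2, Fas and Mcl1 (32.7% of all). A TATA box was in that of Cflar (12.4% of all). A match says only that the letters are there. The promoters of the 3 falling genes with a gamma-activated site match are shown to let that match be read, 5′ to 3′ on the plus strand and ending at the base before the start, with the match in capitals; they were chosen after the matches were seen.
Casp12, chr9:5345226-5345475: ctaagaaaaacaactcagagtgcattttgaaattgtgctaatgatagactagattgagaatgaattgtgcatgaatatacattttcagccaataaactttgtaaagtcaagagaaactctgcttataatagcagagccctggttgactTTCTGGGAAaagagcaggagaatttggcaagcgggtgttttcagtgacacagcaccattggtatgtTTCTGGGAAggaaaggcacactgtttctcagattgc
Fas, chr19:34290409-34290658: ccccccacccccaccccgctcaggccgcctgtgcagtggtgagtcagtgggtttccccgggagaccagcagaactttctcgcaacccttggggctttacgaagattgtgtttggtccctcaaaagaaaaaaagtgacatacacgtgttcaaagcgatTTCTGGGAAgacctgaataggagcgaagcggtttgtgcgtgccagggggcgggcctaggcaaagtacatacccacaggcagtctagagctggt
Tnfrsf1a, chr6:125349473-125349722: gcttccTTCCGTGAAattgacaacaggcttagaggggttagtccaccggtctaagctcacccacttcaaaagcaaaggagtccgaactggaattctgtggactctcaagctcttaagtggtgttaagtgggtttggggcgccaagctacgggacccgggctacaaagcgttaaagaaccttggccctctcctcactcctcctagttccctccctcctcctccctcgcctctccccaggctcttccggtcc
The Casp12 promoter holds the match 2 times, in the same letters as the single match of Fas.

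Among the effectors and inhibitors of the mitochondrial route, Bak1, Bcl2 and, in serial-transplant cells, Mcl1 fell. Bak1, which forms pores in the outer mitochondrial membrane, had 8.03, 8.27 and 7.62 in young short culture, 7.37, 7.13 and 7.07 in young long culture and 7.26 and 7.07 in serial-transplant cells. Its long-culture arrays lay below all short-culture arrays. Bak1 changed by -0.78 ± 0.15 (1.72-fold, adjusted p = 0.0107) in young and -0.81 ± 0.17 (adjusted p = 0.0161) in serial-transplant cells. The first was at adjusted p = 0.0554 without young long-culture replicate 3 and the second at 0.197 without serial-transplant replicate 2. Bok, a related effector found in many reproductive tissues, had means of 7.38, 7.46 and 7.54 and did not pass.

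Bcl2, the founding survival protein of the family, had 6.91, 7.21 and 7.15 in young short culture, 6.61, 6.70 and 6.65 in young long culture and 6.52 and 6.55 in serial-transplant cells. These groups did not overlap with short culture, although the signal is dim, with a mean over the 8 arrays under the median of all probe sets. The log2 change was -0.43 ± 0.10 (adjusted p = 0.0223) and -0.55 ± 0.12 (adjusted p = 0.0146). In young cells the call was lost without young long-culture replicate 1 or 3, or if young short-culture replicate 2 or 3 was left out (adjusted p between 0.0535 and 0.0859). In serial-transplant cells it was lost without either of their arrays (0.0763 and 0.145) and with only the arrays compared (0.0520).

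Mcl1, a short-lived survival protein, had 10.46, 10.48 and 10.50 in young short culture, 10.34, 10.03 and 10.14 in young long culture and 9.94 and 10.02 in serial-transplant cells. The groups step down without overlap. The log2 change was -0.31 ± 0.10 in young cells (adjusted p = 0.0813) and -0.49 ± 0.12 in serial-transplant cells (adjusted p = 0.0236), where it was lost without any one of serial-transplant replicates 1 and 2 and young short-culture replicate 1 (adjusted p between 0.0529 and 0.157). In young cells Mcl1 passed after quantile normalization (-0.37, adjusted p = 0.0299) and with array weights (-0.32, adjusted p = 0.0282). Bcl2l1, which encodes Bcl-xL and is known to be needed for germ cell survival, had means of 9.24, 9.10 and 9.17. Bcl2l2, which encodes Bcl-w and is known to be needed for adult spermatogenesis, had means of 7.20, 7.14 and 7.26, and both did not pass in any comparison. In young long against short culture the 95% confidence interval of the change was -0.44 to 0.18 for Bcl2l1 and -0.31 to 0.17 for Bcl2l2.

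Of the 8 BH3-only genes, sensors that start the mitochondrial route, Bik rose and Bad fell in young long against short culture, and the other 6 did not pass. Bik had 7.98, 7.54 and 8.14 in young short culture, 8.52, 8.36 and 8.55 in young long culture and 8.41 and 8.26 in serial-transplant cells. All long-culture arrays lay above the short-culture ones. Its log2 change in young cells was 0.59 ± 0.14 (adjusted p = 0.0240, and 0.0838 and 0.0976 without young long-culture replicates 1 and 3).

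Bad, which is held inactive by survival signalling through Akt, had 7.60, 7.74 and 7.39 in young short culture, 7.19, 7.23 and 7.17 in young long culture and 7.24 and 7.15 in serial-transplant cells. Both long-culture groups lay under short culture and overlapped each other, and the fall of Bad in young cells (-0.38 ± 0.11, adjusted p = 0.0417) was near the threshold. It was lost with any array left out except young short-culture replicate 3 (adjusted p between 0.0580 and 0.144), after quantile normalization (0.0624), after centring (0.0671), with only the arrays compared (0.0580) and with an intensity trend (0.0514).

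Pmaip1, which encodes Noxa, a partner of Mcl1, set the lines in long culture apart by size though not by the test. It had 8.41, 8.13 and 8.24 in young short culture, 8.84, 8.04 and 8.35 in young long culture and 7.11 and 7.47 in serial-transplant cells, which lay below all 6 young arrays. Against young long culture the log2 change was -1.12 (95% confidence interval -1.57 to -0.68, unadjusted p = 0.000162, adjusted p = 0.245). With array weights it passed (-1.10, adjusted p = 0.0464). Against young short culture it passed (-0.97 ± 0.20, adjusted p = 0.0143, but 0.112 and 0.0935 without serial-transplant replicates 1 and 2).

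The other BH3-only genes did not pass in any comparison. Bid, which caspase-8 cleaves to link the receptor and mitochondrial routes, had means of 8.56, 8.34 and 8.32 in young short, young long and serial-transplant arrays. Bcl2l11, which encodes Bim, had 7.86, 7.62 and 7.49. Bbc3, which encodes the p53 target Puma, had 6.69, 6.41 and 6.62. Hrk had 8.03, 7.79 and 7.96. Bmf, a sensor of cell detachment, had 8.19, 8.20 and 8.42. The changes of these 5 genes in young long against short culture ranged from -0.28 for Bbc3 to 0.00 for Bmf.

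Downstream of mitochondria no member passed. Apaf1, the scaffold of the apoptosome, had means of 8.96, 8.87 and 8.73 in young short, young long and serial-transplant arrays. Cycs, which encodes cytochrome c, had 9.94, 9.96 and 9.99, and its other 2 probe sets did not pass either. Diablo, which encodes a released antagonist of inhibitor of apoptosis proteins, had 9.38, 9.79 and 9.78. Its changes of 0.41 in young cells (adjusted p = 0.0843) and 0.40 in serial-transplant cells (adjusted p = 0.158) did not pass. Its long-culture arrays did not overlap with short culture, which with so few arrays also occurs for genes that do not pass. Endog, a mitochondrial nuclease, had 6.97, 7.19 and 7.18.

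Of the inhibitor of apoptosis genes, Birc3 fell. Birc3 encodes cIAP2, a ubiquitin ligase at the TNF receptor, and had 7.87, 8.46 and 8.00 in young short culture, 7.35, 7.67 and 7.45 in young long culture and 7.48 and 7.25 in serial-transplant cells. All long-culture arrays lay under the short-culture ones. Birc3 changed by -0.62 ± 0.15 (adjusted p = 0.0254) in young and -0.75 ± 0.17 (adjusted p = 0.0214) in serial-transplant cells. The first was lost without young long-culture replicate 1 or 3 or young short-culture replicate 2 (adjusted p between 0.0514 and 0.102), the second without either serial-transplant array (0.0547 and 0.240) and with only the arrays compared (0.0572). Birc2, which encodes the paralogous cIAP1, had means of 8.45, 8.49 and 8.40, and Xiap, which binds and blocks caspases directly, had 9.23, 9.20 and 9.00.

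Neither measured necroptosis gene passed in young long against short culture, and Mlkl rose in serial-transplant cells. Mlkl, the membrane-rupturing effector, had 5.59, 5.69 and 5.95 in young short culture, 5.75, 5.86 and 6.06 in young long culture and 6.52 and 6.68 in serial-transplant cells. The young groups overlapped and both serial-transplant arrays lay above them, with all values under the median of all probe sets. Mlkl was higher by 0.86 ± 0.14 (1.81-fold, adjusted p = 0.00568) than in young short culture, a call lost without serial-transplant replicate 2 (adjusted p = 0.101). Against young long culture the difference was 0.71 (95% confidence interval 0.40 to 1.01, unadjusted p = 0.000305, adjusted p = 0.304). Ripk3, the kinase that activates Mlkl, had 9.65, 9.19 and 9.54 in young short culture, 9.31, 9.46 and 9.54 in young long culture and 9.63 and 9.90 in serial-transplant cells. It did not pass in any comparison.

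Other genes of the death pathway also moved in both directions. Of 60 such genes, 53 were measured, and in young long against short culture 4 rose and 8 fell (22.6% passed, against 29.4% of the 34 death genes), beside the 5.44% and 5.83% of all probe sets; the counts were 1 to 4 and 3 to 7 with single arrays left out. Besides Casp4, the falling genes with the smallest p were Dap, a regulator of autophagy and death (-0.76, adjusted p = 0.00782), Tnfaip3, the NF-kappaB inhibitor A20 (-0.54, 0.0349), Ticam1, the adaptor TRIF (-0.40, 0.0257), and Gsdme, a gasdermin cleaved by executioner caspases (-0.40, 0.0302). Those that rose were Aven, an inhibitor of Apaf1 (0.61, adjusted p = 0.00553), Birc5, which encodes survivin and acts in mitosis (0.69, 0.0210), Gsdmd, the pore-forming gasdermin of pyroptosis (0.59, 0.0286), and Bnip3l, a mitophagy receptor named after its value was seen (0.36, 0.0402).

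In serial-transplant cells against young short culture, Gsdmd and Aven rose and Casp4 and Dap fell. That was 3.77% of the 53 rising and 3.77% falling, beside 3.58% and 5.15% of all probe sets, so the share was near that of all. These calls were lost without serial-transplant replicate 2, which leaves 1 array in that group. Fewer probe sets of the whole series passed in that fit too. Gsdmd had 7.17, 7.31 and 7.62 in young short culture, 7.68, 8.20 and 7.98 in young long culture and 8.24 and 8.32 in serial-transplant cells. Its arrays stepped up from group to group without overlap. The log2 change in serial-transplant cells was 0.91 ± 0.17 (1.88-fold, adjusted p = 0.00822), and that against young long culture was 0.33 (adjusted p = 0.742).

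**Figure D3:**
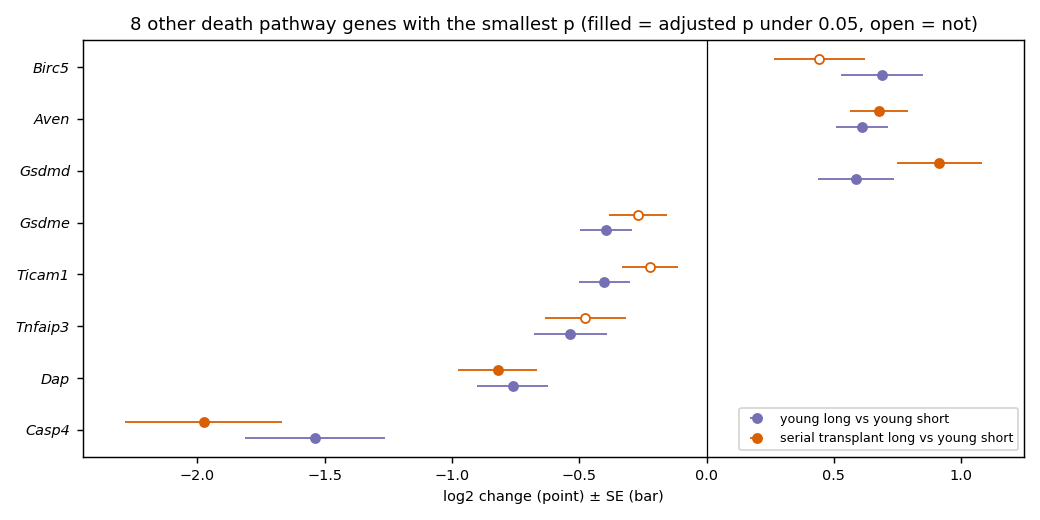
Log2 change (points, x axis) with its standard error (bars) against young short culture for the 8 other death pathway genes with the smallest p in young long culture; filled points passed an adjusted p of 0.05. Casp4 changed by -1.54 and -1.97, and Aven by 0.61 and 0.68, in young and serial-transplant cells.

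Markers of other cell types moved beside these falls. The counts that follow are for young long against short culture, where 5.83% of all probe sets fell and 5.44% rose. Among probe sets with a mean above the median of all, 7.48% fell and 9.21% rose. Of 16 fibroblast markers 13 fell and 0 rose. The mean log2 signal of the list ran from 9.79 to 10.26 in young short culture, from 9.24 to 9.27 in young long culture and from 8.77 to 9.29 in serial-transplant cells. The 8 death genes that fell in both comparisons with short culture had means from 8.01 to 8.76, 7.36 to 7.40 and 7.02 to 7.43. These 8 genes were chosen on the same arrays as lower in long culture, so the order of their groups was fixed in advance. In both lists young short-culture replicate 2 was the highest array and serial-transplant replicate 2 the lowest. The same held for the mean of all 34 death genes (8.27 and 7.92). Those 34 include the 8 chosen genes, so their order is no separate observation. Young short-culture replicate 2 was also highest for the macrophage and mast cell list (7.11), whose lowest array was young long-culture replicate 3 (5.48). Of 13 macrophage and mast cell markers 7 fell, with list means of 6.26 to 7.11, 5.48 to 5.55 and 5.56 to 5.58. Those that fell included the leukocyte genes Ptprc (7.04, 5.62 and 5.97 in young short, young long and serial-transplant arrays) and Laptm5 (7.71, 5.42 and 5.54), and the mast cell protease gene Cpa3 (7.20, 4.41 and 4.42). The macrophage genes Csf1r (5.54, 5.27 and 5.47) and Itgam (5.14, 5.16 and 5.07) were dim in all groups, and Cd68 (7.56, 7.56 and 7.51) did not pass. Of 11 Sertoli and Leydig cell markers 3 fell and 1 rose, with list means of 6.77 to 6.94, 6.37 to 6.50 and 6.32 to 6.47. The falling ones included the Leydig cell genes Cyp11a1 (7.60, 5.25 and 5.38) and Star (7.67, 6.67 and 6.57). The rising one was the Sertoli cell gene Wt1 (7.93, 8.84 and 8.67), while Sox9 (8.75, 8.19 and 7.68) did not pass in young cells. Of 15 germ cell markers 6 rose and 2 fell, with list means of 9.57 to 9.94, 10.00 to 10.10 and 10.07 to 10.13. In serial-transplant against young short culture, 12 fibroblast, 7 macrophage and mast cell, 3 Sertoli and Leydig cell and 1 germ cell markers fell. There 1 Sertoli and Leydig cell marker and 4 germ cell markers rose, beside 5.15% of all probe sets falling and 3.58% rising. The part of these cells in the changes of the death genes was not tested, and fewer cells of a type cannot be told apart from less RNA per cell in such samples.

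**Figure D4:**
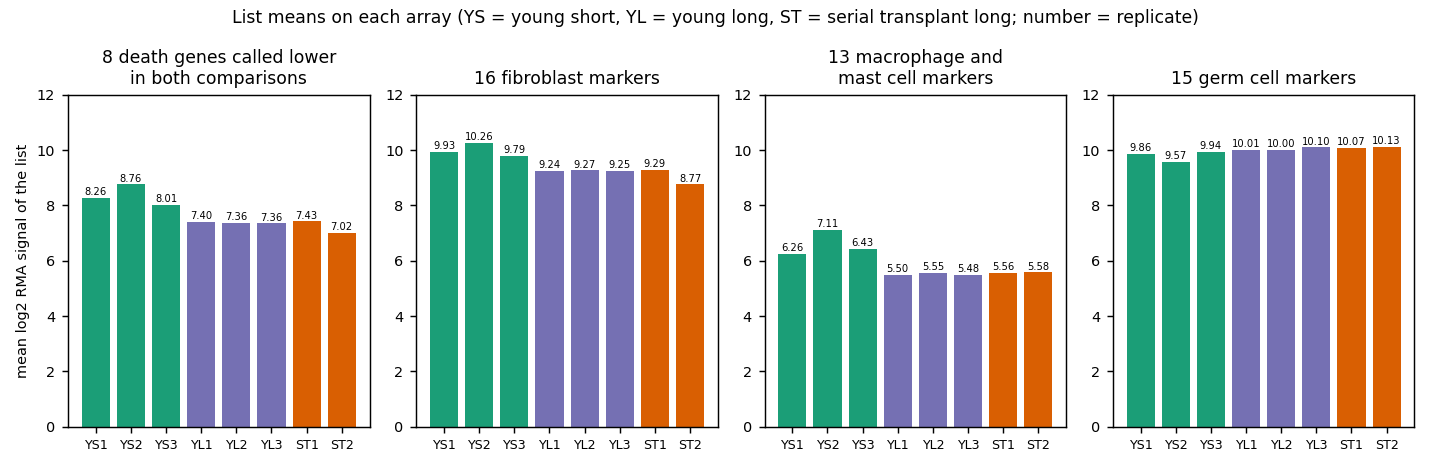
Mean log2 RMA signal (y axis, from 0) on each array (x axis; YS, young short culture; YL, young long culture; ST, serial transplant; the digit is the replicate) for the 8 death genes that fell in both comparisons with short culture and for the fibroblast, macrophage and mast cell, and germ cell markers. The death genes and the fibroblast markers are both highest on YS2 (8.76 and 10.26) and lowest on ST2 (7.02 and 8.77). The 8 death genes were chosen on these arrays as lower in long culture, and the macrophage and mast cell markers are also highest on YS2 (7.11).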

How the data were processed

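The authors deposited RMA signals, which correct background, normalize between arrays and summarise the probes of a probe set; Partek 6.4 and RMA are named in the submitters' processing notes, and the log2 scale was read from the values (2.42 to 14.81). Its settings are not stated in the labels, and scanner files were not analysed here. RMA gives no detection call. Of 35557 rows, 6618 numbered before the first annotated probe set were taken to be controls and left out. Of the rest 21789 carry 1 gene symbol, 1621 several and 5529 none. All 28939 probe sets were fitted with limma 3.58.1 in R 4.3.3, with 1 coefficient per group over 8 arrays and two-sided moderated tests by eBayes (6.28 prior and 5 residual degrees of freedom), Benjamini-Hochberg adjusted at 0.05. The step was tested on simulated data. Errors are SE of log2 changes. The members, their grouping by role and all gene lists were chosen with earlier results of these data known. Arrays are given for members that passed in any comparison and for Ripk3, which did not, and other members by group means. Of other death genes the 8 with the smallest p per comparison were to be named. Promoters came from RefSeq.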

Additional observations from a re-analysis of the deposited data

How the results depend on the processing

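The number of death genes that fell in young long against short culture was 9, and 4 to 8 with single arrays left out; the riser count was 1, and 0 to 1. With a required log2 change of at least 1 these counts were 3 and 0, beside 308 and 88 of all 28939 probe sets. With array weights 2 genes rose. For serial-transplant against young short culture 10 fell and 1 rose, 0 to 11 and 0 to 2 with single arrays left out. With a change of at least 1 there were 4 and 0, beside 468 and 96 of all probe sets. With the dim probe sets left out 0 rose (Mlkl is then not tested), and with the replicate block 2 rose. Between the groups in long culture 0 fell, and 1 (Pmaip1) did with array weights. Of the other death pathway genes, 8 fell and 4 rose in young long culture (3 to 7 and 1 to 4 with single arrays left out). The 8 became 5 after centring, 4 with only the arrays compared, 4 with the replicate block and 1 with a change of at least 1, and the 4 became 0 with that change. In serial-transplant against young short culture 2 fell and 2 rose (0 to 5 and 0 to 2 with single arrays left out), with 4 falling once dim probe sets were left out and 1 and 0 with a change of at least 1. No call of a death gene changed sign in any setting. Centring moved the rising share of all called probe sets from 48.3% to 59.6% in young long culture and from 41% to 50.9% in serial-transplant against young short culture. Deviations from group means of same-numbered arrays correlated between -0.268 and 0.176, and between the young groups they correlated at 0.0812, 0.176 and 0.102. Deviations within groups this small are tied to each other, so these values cannot settle whether replicate numbers pair the arrays. Under the block 2754 probe sets passed in young long culture, against 3260, and 2467 against 2528 in serial-transplant cells, with 4 against 0 between the groups in long culture. The calls of Bad (adjusted p = 0.0577) and Fas (0.0574) in young cells were lost under the block, and Bik passed in serial-transplant against young short culture (0.0380). The cause of these differences was not tested. The small number of arrays limits what can be detected, and low RMA signals cannot be told from background.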

Other observations

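The measured gene beside Birc2 on chromosome 9, on the side away from Birc3, moved against Birc3. Tmem123, which encodes porimin, a surface protein described as mediating a swelling form of cell death, had means of 10.18 in young short and 11.15 in young long culture. It rose by 0.97 on the log2 scale in young cells (limma adjusted p = 0.00142) and by 0.96 in serial-transplant cells (adjusted p = 0.00347), while Birc3 fell and Birc2 did not pass in either. Beside the caspase cluster, Gria4, a glutamate receptor subunit gene next to Casp1, changed by 0.90 in young cells (adjusted p = 0.00829) with means of 5.80 and 6.69, both under the median of all probe sets, and by 0.63 in serial-transplant cells, which did not pass (adjusted p = 0.0603). Yap1, the measured gene beside Birc3, did not pass in young (-0.20, adjusted p = 0.231) or serial-transplant cells (-0.21, adjusted p = 0.3). Cfap300, the next measured gene, rose by 0.44 in young cells (adjusted p = 0.0473) and did not pass in serial-transplant cells (0.50, adjusted p = 0.0503). On the Casp8 side of the Cflar and Casp8 pair, C2cd6 changed by -0.90 in serial-transplant cells (adjusted p = 0.0382). It did not pass in young cells (-0.69, adjusted p = 0.0604), and its mean of 4.67 over the 8 arrays was in the range of background. All of these neighbours of death genes were named after their values were seen.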
